A study of Rattus norvegicus with 10 samples.

Results

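The genes described here code for the T cell receptor complex and its partners, together with Tcf7, and they were followed in the livers of rats poisoned with sulfur mustard (SM). The members were Cd3d, Cd3e, Cd3g, Cd247, Cd4, Cd5, Cd8a, Cd8b, Lck and Tcf7, chosen by gene symbol. For 9 members the probe was found through the accession it carries, and for Tcf7 through the study's own table of changed genes. All 10 genes had 1 probe each, among 41012 probes on the array and 13973 genes that could be named. SM is an alkylating agent that causes blisters and damages dividing cells. Male Sprague Dawley rats received 3.5 mg/kg SM in propylene glycol under the skin, equal to 0.7 of the LD50, the median lethal dose. Control rats received the same volume of solvent. The SM + MSTF group received the same SM dose and, 1 h later, 120 mg/kg MSTF by stomach tube. MSTF combines salvianolic acids, obtained from Salvia miltiorrhiza, with the total flavonoids of Anemarrhena asphodeloides. Livers were taken 24 h after SM and hybridised to 10 one-colour arrays, 1 per rat, with 3 control, 4 SM and 3 SM + MSTF arrays. No rats given MSTF without SM were analysed here, and whether the control and SM rats received the MSTF vehicle was not given in the sources used here.

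The arrays came from 3 slides. All 4 SM arrays sat on slide 2, which carried no other group. The controls shared slide 1 with replicate 3 of SM + MSTF, whose other replicates were on slide 3. The SM group and slide 2 therefore cannot be told apart. Between 51.9% and 61.4% of the probes on an array were well above background, and no member result involved a saturated spot. The 10 hepatocyte genes examined were above background on all 10 arrays, in keeping with the labelled tissue, and 0 of them passed the test in any comparison.

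The T cell receptor recognises antigen but has no signalling part of its own. The CD3 delta, epsilon and gamma chains and the zeta chain, the product of Cd247, pass the signal into the cell. The kinase Lck, which is held by the co-receptors CD4 and CD8, phosphorylates these chains. CD5 damps the signal, and Tcf7 codes for TCF-1, a transcription factor of developing, naive and memory T cells that also acts in the Wnt pathway with beta-catenin. In rats, CD4 is also carried by macrophages, and CD8 alpha without CD8 beta is carried by natural killer (NK) cells. T cells are a small share of the cells in a whole liver.

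RefSeq promoter windows were at hand for 8 of the 10 members and not for Cd4 and Cd8b. Each window ran from 250 bases before to 50 bases after the start of a transcript. Shown here are the 250 bases before the start for Tcf7, the member that passed the test between SM and control, and for Cd3d and Cd3g, the neighbouring CD3 genes whose levels could be followed on every array. The sequences are those of build GRCr8, read 5′ to 3′ along the gene. Capitals mark the TCF/LEF motif CTTTGAT on either strand.

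Tcf7, chr10:36954280-36954529, minus strand: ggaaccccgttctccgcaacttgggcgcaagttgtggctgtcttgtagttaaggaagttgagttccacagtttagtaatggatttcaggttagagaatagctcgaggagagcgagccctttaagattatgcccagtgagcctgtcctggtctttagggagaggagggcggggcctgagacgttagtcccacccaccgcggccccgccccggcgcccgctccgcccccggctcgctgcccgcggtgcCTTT

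Cd3d, chr8:54185269-54185518, plus strand: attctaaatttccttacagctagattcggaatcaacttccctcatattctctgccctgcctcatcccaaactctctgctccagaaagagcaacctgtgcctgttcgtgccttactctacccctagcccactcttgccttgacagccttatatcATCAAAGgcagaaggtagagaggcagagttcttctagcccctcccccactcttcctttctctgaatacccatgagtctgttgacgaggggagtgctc

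Cd3g, chr8:54183919-54184168, minus strand: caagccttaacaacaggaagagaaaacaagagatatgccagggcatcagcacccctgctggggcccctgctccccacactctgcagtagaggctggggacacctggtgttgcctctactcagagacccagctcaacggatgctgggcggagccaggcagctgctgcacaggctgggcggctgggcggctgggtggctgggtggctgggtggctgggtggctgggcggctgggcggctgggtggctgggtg

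The Cd3d and Cd3g genes lie head to head on opposite strands. The motif CTTTGAT was present in 3.63% of 33469 promoter windows. Among the members it was found in Cd3d, on the reverse strand 97 to 91 bases before the start, and in Tcf7, where it began 4 bases before the start and ran past the end of the sequence shown. The ETS motif GGAAGT, present on either strand in 22.6% of all windows, was found in the windows of Cd247, Cd3d, Cd3e, Cd5, Lck and Tcf7. The E box CAGNTG, present in 50.2% of windows, was found for Cd247, Cd3g, Cd5 and Lck, and the RUNX motif TGTGGT, present in 17.3%, for Lck alone. These matches describe the letters in the windows and were not tied to binding of any factor.

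In all, 5 members were measurable on every array: Cd3d, Cd3g, Cd8a, Cd8b and Tcf7. Lck was well above background on 9 arrays and missed on control 2, and Cd4 on 8 arrays and missed on control 2 and SM 3. Cd3e was above background on SM 1 only, and Cd247 and Cd5 on no array. Thus 7 of the 10 member probes were tested, and for Cd3e, Cd247 and Cd5 a fold change could not be given. On the log2 scale the lowest signal counted as well above background was between 3.77 and 4.81, depending on the array. The signals of Lck and Cd4 therefore lay close to the limit of measurement.

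**Figure D1:**
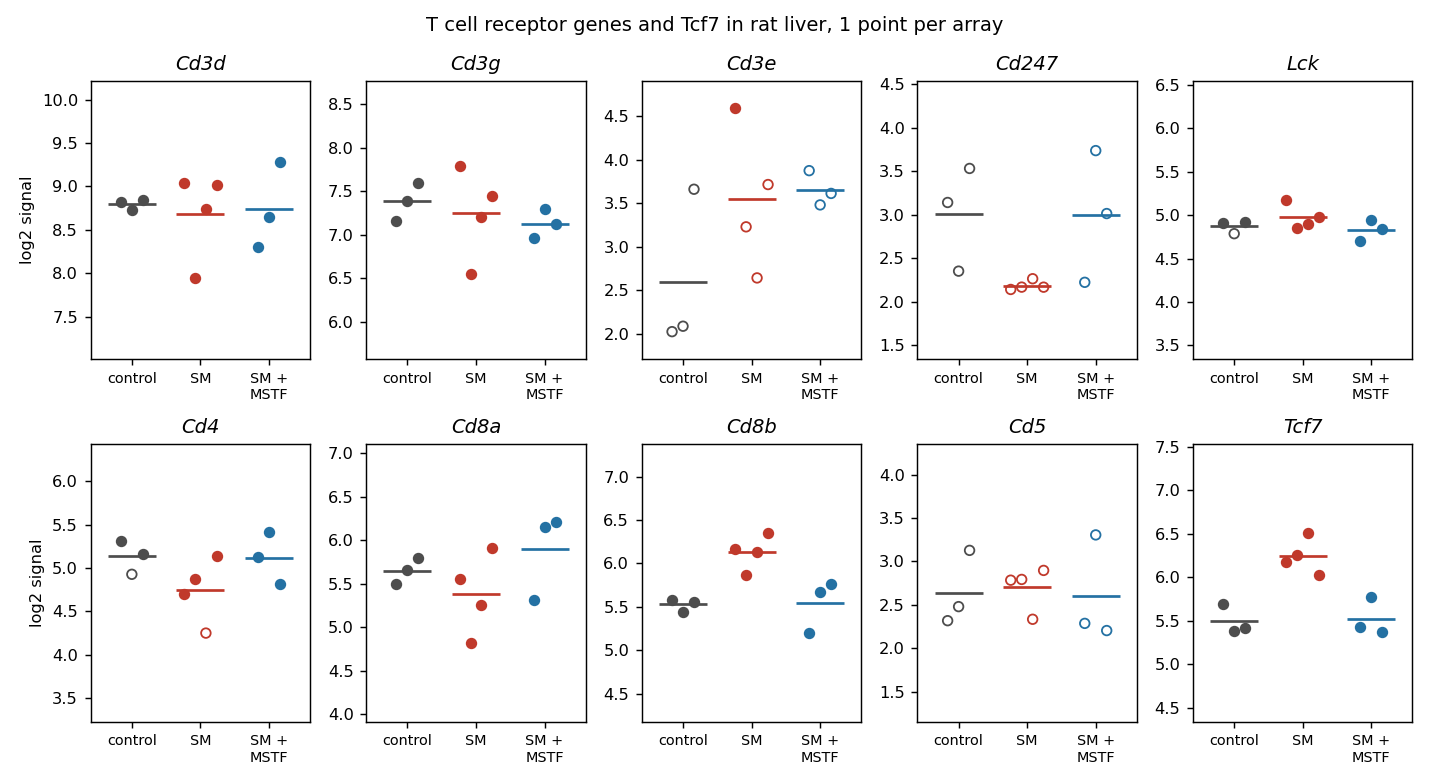
Log2 signal of the 10 member probes by group, 1 point per array and rat, with the group mean as a bar. Filled points were well above background and open points were not, all panels have the same height in log2 units, and signal is not comparable between panels because each gene has its own probe. The 4 SM points of Cd8b and of Tcf7 lie above all other points of those genes.

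SM versus control addressed how SM alters liver gene expression. Tcf7 rose 1.67-fold in SM livers, the only member called, while the CD3 chain genes Cd3d and Cd3g, the kinase gene Lck and the co-receptor genes Cd4 and Cd8a did not pass the test. Cd8b lay 1.52-fold higher in SM without passing the test over all probes. A probe was called at an adjusted p under 0.05 in limma and a change of at least 1.5-fold. By this rule 1 of the 7 tested members was called, against 2.4% of all 22991 probes tested, or 0.974% counting probes called higher. At an unadjusted limma p under 0.05, met by 16.4% of probes, Cd8b and Tcf7 passed, and both also exceeded 1.5-fold, as did 5.61% of probes. An F-test over the 3 groups called Tcf7 (limma adjusted p = 0.0433), against 2.07% of probes, and gave an adjusted p of 0.0996 for Cd8b. Tcf7 and Cd8b were both among the genes the study had picked from these same arrays as changed, so their difference is not independent evidence. The Tcf7 probe got its name only from the study's table of genes changed between SM and control. It could thus be a member only by differing on these arrays. Member counts that include Tcf7 therefore cannot be weighed against the shares over all probes. The study also followed Tcf7, though not Cd8b, by real-time PCR. It reported that the genes so measured changed in a qualitatively similar way to the arrays. In whole liver, a change in the number of cells of a type and a change in RNA per cell cannot be told apart.

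The Tcf7 signal was 5.69, 5.38 and 5.42 in controls 1 to 3. It was 6.17, 6.25, 6.51 and 6.03 in SM replicates 1 to 4. In SM + MSTF replicates 1 to 3 it was 5.42, 5.78 and 5.37. All 4 SM arrays were above all 6 other arrays, and the SM + MSTF arrays overlapped the controls. The log2 change from control to SM was 0.74 ± 0.15 (SE, with 95% CI 0.41 to 1.08; limma adjusted p = 0.0338). This call rested on the full set of arrays. Leaving out any 1 of the 7 arrays compared kept the log2 change between 0.65 and 0.84 but ended the call, with adjusted p from 0.0502 (without SM 4) to 0.134 (without control 2). Without SM 1, SM 2 or SM 3 the adjusted p was 0.0784, 0.0718 or 0.0804, and without control 1 or control 3 it was 0.0711 or 0.119. With the slide as a random block the log2 change was 0.73 and the adjusted p was 0.109. With the normexp background correction the log2 change was 0.33 and the adjusted p was 0.0634.

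**Figure D2:**
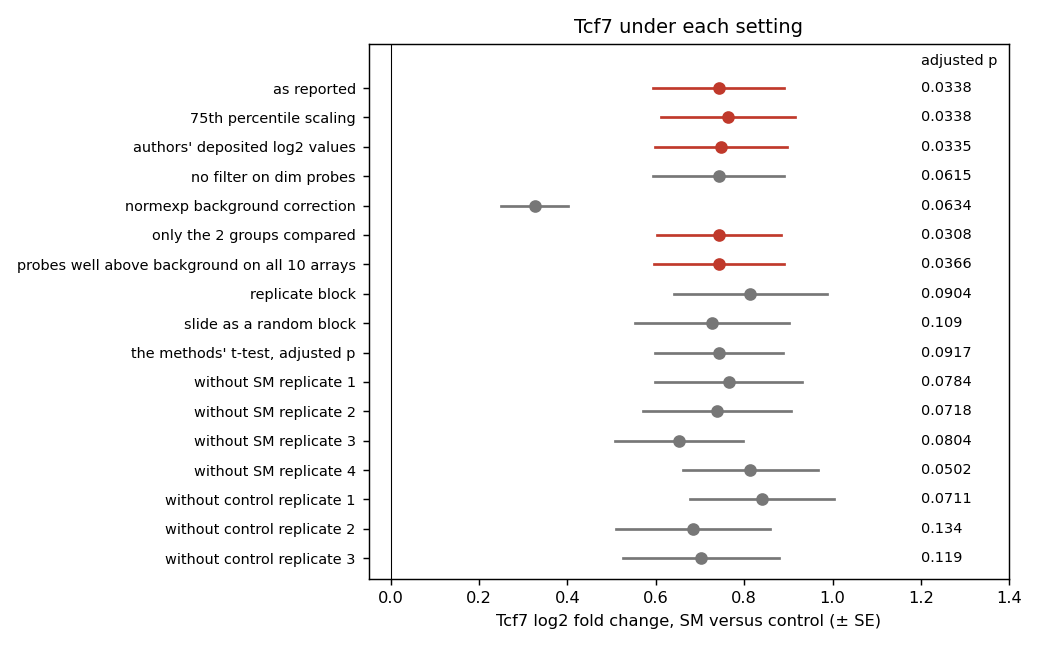
Tcf7 log2 fold change from control to SM under each setting of the processing and with each array left out, with bars of 1 SE and the adjusted p at the right. Red points have an adjusted p under 0.05. The change stayed above 0 throughout, lowest at 0.33 with the normexp correction, and the adjusted p crossed 0.05 in every fit that left out an array.

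Cd8b codes for the beta chain of CD8, which pairs with CD8 alpha on cytotoxic T cells. Its signal was 5.58, 5.44 and 5.56 in controls 1 to 3 and 6.16, 5.87, 6.14 and 6.35 in SM 1 to 4. In SM + MSTF 1 to 3 it was 5.20, 5.67 and 5.77. As with Tcf7, every SM array was above every other array. The log2 difference of SM from control was 0.60 ± 0.16 (SE, with 95% CI 0.25 to 0.95; limma adjusted p = 0.0811). When the SM + MSTF arrays were left out of the fit the adjusted p was 0.0457 and Cd8b was called, as were 3.11% of all probes. The groups did not overlap for 2 of the 7 tested members, Cd8b and Tcf7, both higher in SM. Over all probes the groups did not overlap for 18%, and with SM higher for 10%. The stricter pattern, all 4 SM arrays above the 6 others, held for 961 of 22986 probes, or 4.18%, and for these same 2 members.

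Cd8a codes for the alpha chain of CD8. Its signal was 5.50, 5.66 and 5.79 in controls, 5.55, 4.82, 5.26 and 5.91 in SM and 5.32, 6.16 and 6.21 in SM + MSTF. The SM arrays held both values below the controls and the value of SM 4 above them, so the groups overlapped. The log2 difference of SM from control was -0.26 ± 0.28 (SE, with 95% CI -0.89 to 0.36; limma adjusted p = 0.693).

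The CD3 chains mark all T cells. Cd3d gave 8.81, 8.73 and 8.84 in controls 1 to 3, and 9.04, 7.94, 8.73 and 9.02 in SM 1 to 4. In SM + MSTF 1 to 3 it gave 8.30, 8.65 and 9.28. The 3 controls lay close together, whereas SM and SM + MSTF arrays fell on both sides of them, with SM 2 the lowest of all 10. Cd3g gave 7.16, 7.39 and 7.60 in controls and 7.79, 6.55, 7.21 and 7.45 in SM. In SM + MSTF it gave 6.96, 7.30 and 7.12. Here too SM 2 was the lowest array, SM 1 was the highest, and the groups overlapped. The log2 differences of SM from control were -0.11 ± 0.29 for Cd3d (SE, with 95% CI -0.76 to 0.54; limma adjusted p = 0.888) and -0.13 ± 0.26 for Cd3g (SE, with 95% CI -0.71 to 0.44; adjusted p = 0.843). Without SM 2 both turned to the other side of 0, at 0.13 and 0.10. These intervals reach past a 1.5-fold change (0.58 on the log2 scale) on the lower side, so a fall of that size was not excluded by these arrays.

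Lck, the kinase that starts signalling, varied least of the tested members, over a range of 0.47 log2 units. Its signal was 4.91, 4.79 and 4.92 in controls, 5.18, 4.86, 4.90 and 4.98 in SM and 4.71, 4.94 and 4.84 in SM + MSTF. The groups overlapped, and the log2 difference of SM from control was 0.11 ± 0.11 (SE, with 95% CI -0.13 to 0.34; limma adjusted p = 0.671). Cd4, the co-receptor of helper T cells, gave 5.31, 4.93 and 5.16 in controls, 4.70, 4.87, 4.25 and 5.14 in SM and 5.13, 5.41 and 4.82 in SM + MSTF. SM 1, SM 2 and SM 3 lay below every control and SM 4 lay among them. The log2 difference was -0.39 ± 0.21 (SE, with 95% CI -0.87 to 0.09; limma adjusted p = 0.411).

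The remaining members were near background. Cd3e, the epsilon chain of CD3, had signals of 2.02, 2.08 and 3.66 in controls, 4.59, 3.23, 2.64 and 3.72 in SM and 3.88, 3.48 and 3.61 in SM + MSTF. The value of 4.59 on SM 1 was the only one well above background. Cd247 ranged from 2.14 to 3.74 and Cd5 from 2.20 to 3.31 over the 10 arrays. No order between groups can be read from such values.

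SM + MSTF versus control asked how close the MSTF-treated livers were to the controls. None of the 7 tested members was called, against 0% of all probes by the same rule and 9.54% at an unadjusted limma p under 0.05 (3.01% when a 1.5-fold change was also asked). None of the 7 reached that either. Neither did any of the 7 separate the groups without overlap, against 15.4% of probes, or 8.03% with SM + MSTF higher. Tcf7 differed by 0.03 on the log2 scale (95% CI -0.33 to 0.38; limma adjusted p = 0.972) and Cd8b by 0.02 (95% CI -0.35 to 0.39; adjusted p = 0.982). The signs of both turned with the 75th percentile scaling. For both genes the interval of this fit, which leaves the slide out, excludes a difference of 1.5-fold in either direction. With the slide as a fixed block the comparison rests on 1 SM + MSTF array, and no such statement can be made. The log2 differences of the other members were 0.25 for Cd8a, -0.26 for Cd3g, -0.05 for Cd3d, -0.04 for Lck and -0.02 for Cd4, with adjusted p between 0.790 and 0.989. The intervals of Cd8a, Cd3d and Cd3g include 1.5-fold differences. Slide 1 holds both groups. Within it the SM + MSTF array was below the 3 controls for Tcf7, Cd3g and Cd4, above them for Cd3d, Cd8a and Cd8b and among them for Lck. Its distance from the control mean was -0.13 for Tcf7, 0.24 for Cd8b, 0.49 for Cd3d and 0.56 for Cd8a on the log2 scale.

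SM + MSTF versus SM asked what MSTF changed in SM-treated livers. Tcf7 and Cd8b were lower in SM + MSTF, but no member passed the test. This 0 of 7 stands against 1.26% of all probes called, or 0.939% called lower. At an unadjusted limma p under 0.05, which 15.9% of probes met, 2 members passed, Cd8b and Tcf7, and Tcf7 also exceeded 1.5-fold, as did 5.34% of probes. Tcf7 differed by -0.72 ± 0.15 on the log2 scale (SE, with 95% CI -1.05 to -0.38; limma adjusted p = 0.0528). With the 75th percentile scaling the difference was -0.78 and was called (limma adjusted p = 0.0352), as were 1.64% of all probes. Cd8b differed by -0.58 ± 0.16 (SE, with 95% CI -0.93 to -0.23; limma adjusted p = 0.123). The groups did not overlap for these same 2 members, against 14.7% of all probes, or 8.73% with SM + MSTF lower. Cd8a and Cd4 lay on the other side, at 0.51 ± 0.28 and 0.38 ± 0.21 (SE, limma adjusted p = 0.387 and 0.403), with overlapping groups. Lck, Cd3g and Cd3d differed by -0.15, -0.12 and 0.06. The SM arrays are part of both this comparison and SM versus control, so the opposite signs of Tcf7 and Cd8b in them share those 4 arrays.

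**Figure D3:**
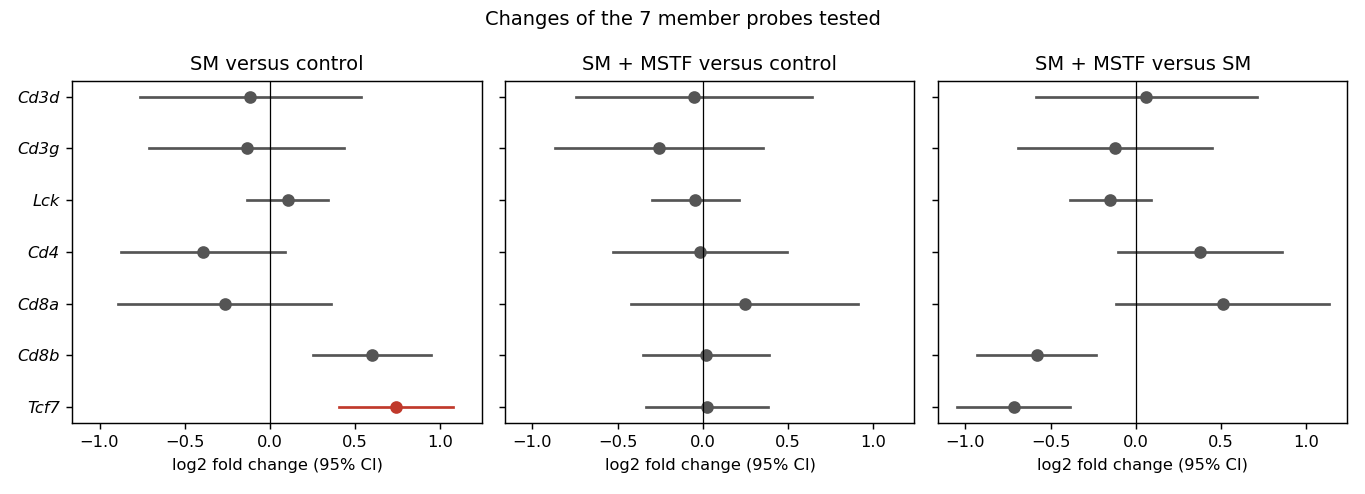
Log2 fold change of the 7 tested member probes in the 3 comparisons, with 95% confidence intervals from limma. Red marks the single called change, Tcf7 in SM versus control at 0.74, and the intervals of Tcf7 and Cd8b exclude 0 in both comparisons with SM and include it in SM + MSTF versus control.

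The 2 chains of CD8 were set against each other after their values had been seen, so the differences are given without a test. The change of Cd8b from control to SM exceeded that of Cd8a by 0.86 on the log2 scale, and the per-array differences did not overlap between the groups. From SM to SM + MSTF the difference was -1.09, again without overlap. For Tcf7 against Cd3d it was 0.86 from control to SM, without overlap, and -0.78 from SM to SM + MSTF, where the groups overlapped.

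Within groups, however, the CD8 chains tended to move together from rat to rat, a relation that did not pass after adjustment. The rats of the SM and SM + MSTF groups kept the same order in both genes, whereas the controls did not. After each group's mean was subtracted, Cd8a and Cd8b correlated over the 10 arrays with r = 0.93 and rho = 0.85 (exact within-group permutation p = 0.0127 and 0.0197, adjusted p = 0.133 and 0.255 over 21 member pairs). With the 2 arrays farthest in Cd8a left out, SM 2 and SM + MSTF 1, r was 0.77. Slide means subtracted in place of group means gave r = 0.94. Cd3d followed Cd8b in the same way with r = 0.86 and rho = 0.62 (exact permutation p = 0.0104 and 0.0949, adjusted p = 0.133 and 0.364), and without SM 2 and SM + MSTF 3 r was 0.80. Between Cd3d and Cd3g r was 0.74 and rho 0.55 (exact permutation p = 0.0509 and 0.104, adjusted p = 0.178 and 0.364), and without the same 2 arrays r was 0.69. Tcf7 showed no such relation, with r of -0.01 to Cd8b and -0.24 to Cd3d (exact permutation p = 0.976 and 0.537, adjusted p = 0.993 and 0.921). None of the 21 relations passed after adjustment. SM 2 was the lowest SM array for Cd3d, Cd3g, Cd8a, Cd8b and Lck but not for Tcf7, whose lowest SM array was SM 4.

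**Figure D4:**
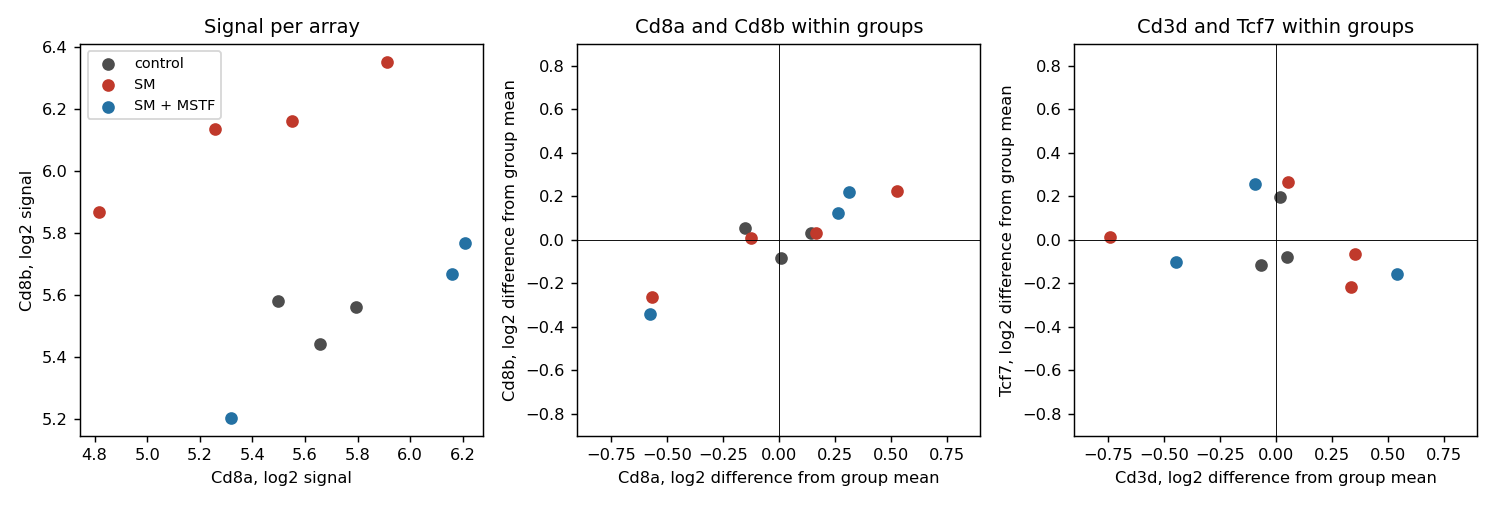
Left, log2 signal of Cd8b against Cd8a, 1 point per array, with the 4 SM arrays above all others on the Cd8b axis. Middle and right, difference of each array from its group mean on the log2 scale for Cd8b against Cd8a (r = 0.93) and for Tcf7 against Cd3d (r = -0.24).

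Genes whose signal followed Tcf7 most closely over the 10 arrays were Slc35b4, a nucleotide sugar transporter gene (Pearson r = 0.976), Hoxd9, a homeobox gene (0.960), Or13c7e, an olfactory receptor gene (0.958), Yif1b, which serves transport from the endoplasmic reticulum (0.954), and Myh11, the smooth muscle myosin heavy chain (0.951). They were the highest of 9315 other named genes tested, and none is on the T cell lists. Their log2 differences of SM from control were 0.60, 1.10, 0.59, 0.37 and 1.38 in that order. Choosing genes by likeness to Tcf7, which was highest on the SM arrays, favours such differences, so they are given without a test. For the mean of Cd3d and Cd3g the closest included Midn (0.900), Hap1 (0.891), Cd6 (0.888) and Dennd1a (0.885). Cd6 is a T cell surface glycoprotein gene related to Cd5, and its log2 difference of SM from control was -0.04 (limma adjusted p = 0.955). These correlations pool the 3 groups and are given as descriptions.

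Among other genes of T cell receptor signalling, 32 of 42 listed were on the array under a matched name and 19 were tested. None was called in any of the 3 comparisons, with an unadjusted limma p under 0.05 for 2 genes between SM and control, 0 between SM + MSTF and control and 3 between the SM groups. The median log2 changes were 0.00, 0.06 and 0.10, beside 0.03, 0.00 and -0.02 over all probes. Ctla4, the inhibitory receptor, was the signalling gene of smallest p in both comparisons with SM. It was above background on 4 of 4 SM arrays, 1 of 3 controls and 0 of 3 SM + MSTF arrays, with mean signals of 4.53, 4.10 and 3.89, so it passed the filter on low values through the SM arrays alone, where it was highest. Measured SM was 0.43 higher than control on the log2 scale (limma adjusted p = 0.155). The measured difference between SM + MSTF and SM had a limma adjusted p of 0.0634. With the dim SM + MSTF arrays set at the lowest signal that was well above background, SM was 1.12-fold higher. That fold is not a strict lower limit. A probe can lie above that lowest signal and still not be well above background, as Cd4 did on control 2 (4.93). Il2rb, a chain of the interleukin 2 and 15 receptors, differed by -0.50 in SM versus control (adjusted p = 0.273), and Nfatc3, a calcium-activated transcription factor, by -0.19 (adjusted p = 0.409). The other tested probes of Nfatc3 gave 0.11, 0.06 and -0.19. From SM to SM + MSTF, the interleukin 7 receptor gene Il7r differed by 1.10 (adjusted p = 0.216) and the adaptor gene Lcp2 by 0.56 (adjusted p = 0.284). A further tested probe of each gave less, 0.58 for Il7r (limma adjusted p = 0.395) and 0.25 for Lcp2 (adjusted p = 0.812). Csk, Vav1 and Il7r had the smallest p in SM + MSTF versus control, with log2 differences of 0.29, 0.44 and 0.61 (adjusted p = 0.619, 0.635 and 0.656). The further probes of Csk and Il7r gave 0.26 and 0.15 there. Txk, Rasgrp1, Grap2, Skap1, Cd28 and Pdcd1 were not well above background on any array. The 9 symbols listed for the receptor chains themselves matched no named probe.

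Of 20 T cell transcription factors other than Tcf7, 17 were on the array, 12 were tested and none was called. Bcl11b, needed for T cell commitment, had the smallest p, with a log2 difference of 1.14 between SM and control (limma adjusted p = 0.120). It was -1.22 from SM to SM + MSTF (adjusted p = 0.137), and its SM arrays did not overlap either group. It was above background on 2 of 3 controls, 4 of 4 SM arrays and 1 of 3 SM + MSTF arrays, so it too entered the test through SM alone, where it was highest, and its differences are set against arrays partly at background. Klf2 differed by 0.37 in SM versus control (adjusted p = 0.330) and Satb1 by -0.23 from SM to SM + MSTF (adjusted p = 0.373). In SM + MSTF versus control the smallest p belonged to Satb1, Runx3 and Id3, at -0.22, -0.36 and 0.26 (adjusted p = 0.622, 0.708 and 0.745). Satb1 was above background on 2 of 3 controls, 4 of 4 SM arrays and 1 of 3 SM + MSTF arrays. It thus entered the test through SM alone, and both its differences involve arrays partly at background. Lef1, the closest relative of Tcf7 in T cells, stayed at background on all 10 arrays, as did Gata3, Tbx21 and Ikzf3. Of the TCF/LEF family and its beta-catenin partners, 6 genes were tested besides Tcf7 and 0 were called. All 6 lay higher in SM than in control, with a median log2 difference of 0.16, beside 0.03 over all probes. In SM + MSTF versus control 5 of the 6 also lay higher, with a median of 0.16. Axin2, a target of the Wnt pathway, had the smallest p in SM versus control, at 0.72 (limma adjusted p = 0.141).

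Markers of NK cells and macrophages, which carry some of these genes, lay on the other side of 0 from Tcf7 and Cd8b in both comparisons with SM. Of 13 cytotoxic and NK genes on the array, 11 were tested and all 11 lay lower in SM than in control, with a median of -0.38 on the log2 scale, although Klrd1 alone was called. Klrd1, a chain of NK cell lectin receptors, had mean signals of 5.44 in controls, 4.22 in SM and 5.37 in SM + MSTF, and was well above background on all arrays but 2 of the 4 SM arrays. As measured, with those dim arrays included, it fell by 1.22 on the log2 scale in SM versus control (limma adjusted p = 0.0278) and was 1.15 higher in SM + MSTF than in SM (adjusted p = 0.0456). The summed signal of the 11 genes ran from 10279 to 25535 in SM, 16797 to 19209 in controls and 19845 to 28277 in SM + MSTF, so the groups overlapped, and Ncr1 was never above background. All 12 Kupffer cell and macrophage genes lay lower in SM than in control (median -0.12) and higher in SM + MSTF than in SM (median 0.39). All 12 also lay higher in SM + MSTF than in control (median 0.26), and 0 were called in any comparison. Of the 8 genes of all leukocytes, 7 lay lower in SM than in control (median -0.25) and 0 were called. All 3 neutrophil genes tested lay higher in SM than in control (median 0.75), and 1 of them, Mpo, was called (0.81, limma adjusted p = 0.0457). Mpo was well above background on 4 of 4 SM arrays, 2 of 3 controls and 1 of 3 SM + MSTF arrays, and so entered the test through SM alone, where it was highest. The summed signal of these 3 ran from 310.0 to 1597 in SM and 277.6 to 519.1 in controls. The part of these cells in the values of Tcf7, Cd8a and Cd4 was not tested.

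**Figure D5:**
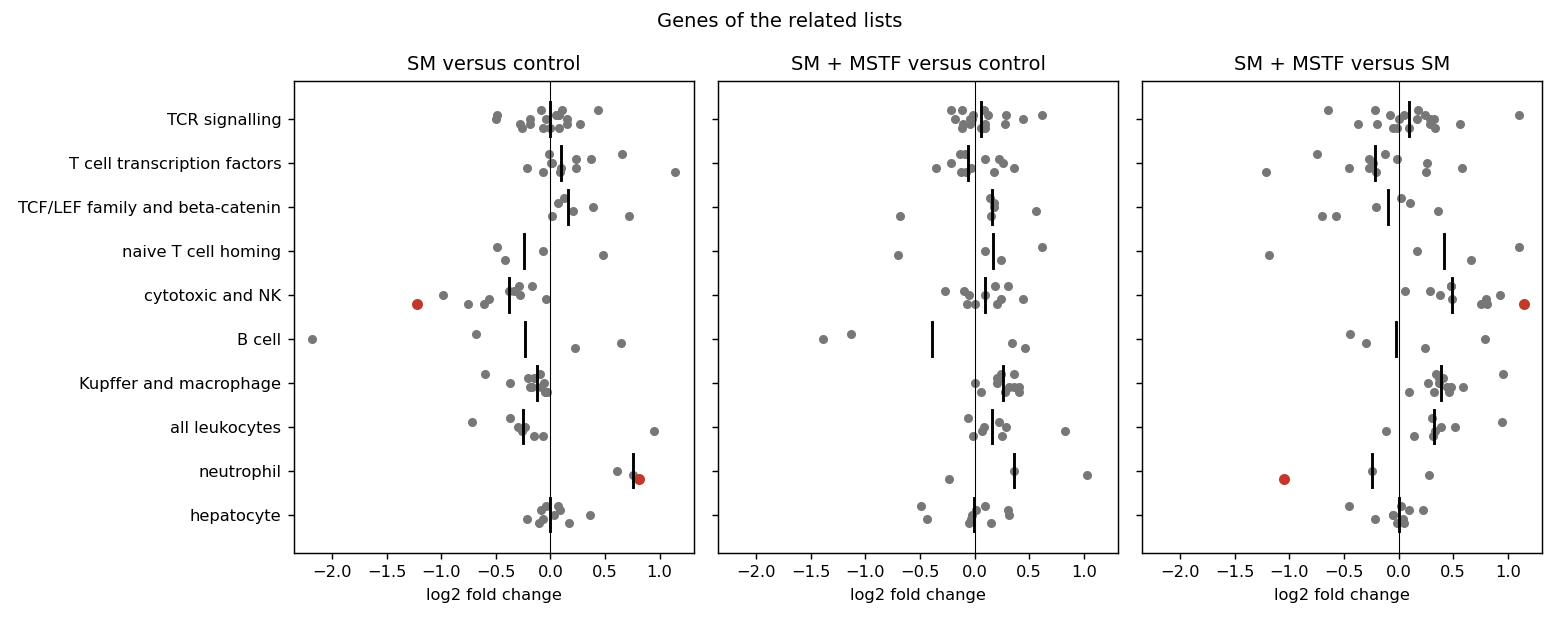
Log2 fold change of each tested gene of the related lists in the 3 comparisons, 1 point per gene, with the list's median as a black bar and called genes in red. The cytotoxic and NK genes lie below 0 in SM versus control (median -0.38) and above 0 in SM + MSTF versus SM (median 0.48), while the T cell receptor signalling genes centre near 0.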

How the data were processed

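Liver RNA of 10 rats was hybridised to one-colour Agilent Whole Rat Genome arrays, 1 array per rat, and grouped by the sample labels. The authors read the spots with Feature Extraction 10.7, which gives a background-subtracted intensity and marks spots well above background. The authors also normalized by quantiles in GeneSpring and deposited log2 values, used here as an alternative. Here the intensity, without control and non-uniform spots (0 to 4 per array), was quantile normalized, put on the log2 scale and averaged per probe (R 4.3.3, limma 3.58.1). For 22991 of 41012 probes, every array of some group was well above background, and these were fitted in 1 limma model over the 10 arrays, with Benjamini-Hochberg adjustment. RefSeq named 9 members through the probe's accession, and the study's own table of genes changed between SM and control named the Tcf7 probe. Of the 41012 probes 23356 stayed unnamed. Member genes and lists were chosen with earlier results of these data known. Every member was named and, of the other lists, every gene with a called probe, plus, for signalling and transcription factors, the 3 of smallest p in each comparison, a gene being read from its probe of highest mean signal. Some genes that this rule names are not reported here. Scripts were tested on simulated data. Alternatives were other scaling, background correction, filters, samples, tests and blocks. The number of arrays limits the precision.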

Additional observations from a re-analysis of the deposited data

How the results depend on the processing

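The count of member probes called in SM versus control was 1. It was 0 with the normexp correction, with no filter on dim probes, with the replicate block, with the slide as a random block and with the methods' t-test after adjustment, which was added after seeing the data. It was 2, Cd8b and Tcf7, with only the 2 groups compared, with limma's unadjusted p and with the methods' t-test unadjusted. Those settings also called more of all probes, 3.11%, 5.61% and 4.92%, beside 2.4% as reported. Leaving out 1 array gave a member count of 0 to 0. Tcf7 had log2 changes of 0.33 (adjusted p = 0.0634), 0.74 (0.0615), 0.81 (0.0904), 0.73 (0.109) and 0.74 (0.0917) in the 5 settings that gave 0. The normexp setting starts from the median spot and background signals and adds 50 to each intensity, which shrinks log2 differences of dim probes. Without the filter 41012 probes were adjusted over. The cause of the lost call was not tested for any of the 5 settings. In SM + MSTF versus SM the count was 0, and 1 (Tcf7) with the 75th percentile scaling, limma's unadjusted p and the unadjusted t-test. For the signalling list in that comparison it was 0, and 1, 2 and 1 in those 3 settings. Of all probes those settings called 1.64%, 5.34% and 3.74%, beside 1.26% as reported. In SM + MSTF versus control both counts were 0 under each alternative.

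Signs turned only for small, uncalled changes. In SM + MSTF versus control they were Cd8b at -0.028 and Tcf7 at -0.017 with the 75th percentile scaling, Cd4 at 0.027 with normexp, Cd3d at 0.024 with the slide as a random block, and Cd3d at 0.49 and Tcf7 at -0.13 with it as a fixed block. Leaving out 1 array gave log2 ranges in this comparison of -0.32 to 0.17 for Cd3d, -0.16 to 0.13 for Cd4, -0.093 to 0.19 for Cd8b, -0.10 to 0.018 for Lck and -0.10 to 0.12 for Tcf7. In SM versus control they were -0.23 to 0.13 for Cd3d and -0.32 to 0.099 for Cd3g, and in SM + MSTF versus SM -0.21 to 0.28 for Cd3d and -0.36 to 0.060 for Cd3g. Over all probes, calls in SM versus control were 552, and 216 with normexp, 341 with no filter, 336 with probes above background on all 10 arrays, 54 with the replicate block, 85 with the slide as a random block, 321 with the adjusted t-test, 1290 and 1131 with unadjusted p in limma and the t-test, and 64 to 327 with 1 array left out. In SM + MSTF versus SM they were 290, and 58, 268, 140, 64, 103, 13, 1228 and 860 in the same order, 147 with only the 2 groups compared, and 98 to 301 with 1 array left out. In SM + MSTF versus control they were 0, and 291 with the slide as a fixed block, 691 and 285 with unadjusted p, and 247 without SM + MSTF replicate 3.

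The labels do not say whether the replicate numbers pair the samples. Same-numbered arrays deviated from their group means with correlations of -0.10 to 0.17, beside -0.23 to 0.18 for other pairs. These values show no sign of pairing but cannot exclude it. Cd3e, Cd247 and Cd5 are limited by signal over background and gave no result under the filter.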

Other observations

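Mpo, the myeloperoxidase of neutrophils and their precursors, rose in SM livers by 0.81 on the log2 scale (limma adjusted p = 0.0457) and differed by -1.05 from SM to SM + MSTF (adjusted p = 0.0245). Its signal was well above background on 4 of 4 SM arrays but only 2 of 3 controls and 1 of 3 SM + MSTF arrays, so it was tested through SM alone, and both differences are set against arrays partly at background. It was the only called gene of the 3 neutrophil genes tested, and Elane, Csf3r and Mmp8 were not well above background on any array. B cells were thinly measured, with 4 of 7 genes on the array tested, 0 called and Cr2 never above background. The median log2 difference of these 4 was -0.23 in SM versus control. Of the genes for homing of naive T cells, 4 of 8 on the array were tested and 0 called, with medians of -0.24 from control to SM and 0.41 from SM to SM + MSTF, and Ccr9 and Cxcr6 were never above background. Ccr7, the receptor that guides T cells to lymph nodes, was named after its values were seen because it lay on the other side. It was above background on 4 of 4 SM arrays and on 0 of the 6 others, and entered the test through SM alone, with mean signals of 4.58 in SM, 4.10 in controls and 3.39 in SM + MSTF (limma adjusted p = 0.571 against control and 0.172 against SM + MSTF). With the dim arrays set at the lowest signal well above background, SM was 1.09-fold higher than control and 1.16-fold higher than SM + MSTF. As for Ctla4, these folds are not strict lower limits. Only 1 of the 8 dendritic cell genes listed was tested, at -0.47 in SM versus control, and it was not called.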
